A study of Ovis aries with 115 samples.

Results

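The genes described here are 32 immune receptors, cytokines and signalling genes of the sheep cervix. They were chosen by name: an identifier is a member if the study's lists of differing genes name it and its name begins with letters of an immune family (CD, IL, CCL, CCR, CXC, TNF, IRF, IFI, TLR, FCGR, NLR, TRAF or JAK), apart from CD27, CD80 and CD177. The lists name 1352 of the 27054 identifiers in the count files. No remaining name began with CD, TLR, FCGR or NLR. The 32 members comprise 6 chemokines and chemokine receptors, 7 interleukins and interleukin receptors including JAK3, and 8 TNF receptors and adaptors. The rest are 5 interferon regulatory factors, counting the relative IRF2BPL, 5 interferon-induced genes, and JAKMIP3, which shares only its letters with the Janus kinases. Of these members, 31 passed the filter on low counts, which kept 14811 genes. CXCR2 (ENSOARG00000019477) did not pass, and its levels are given without a test.

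RNA was sequenced from the cervix of 4 ewe breeds. Suffolk, the low fertility reference breed, and Belclare, of medium fertility, were kept in Ireland, and Fur and Norwegian White Sheep (NWS), both of high fertility after insemination with frozen-thawed semen, were kept in Norway. Ewes were multiparous and were sampled after euthanasia from the mid-cervix, in 3 states: the follicular phase of a synchronised cycle (labelled Induced), the follicular phase of a natural cycle (labelled Natural), and the luteal phase after synchronisation. Synchronised ewes had received a progestagen sponge followed by equine chorionic gonadotrophin, so luteal and synchronised follicular ewes shared that treatment and natural ewes lacked it. Group sizes for Belclare, Fur, NWS and Suffolk were 10, 8, 10 and 11 ewes at the synchronised follicular phase, 10, 10, 10 and 8 at the natural follicular phase, and 10, 9, 8 and 10 at the luteal phase. Each sample was taken as 1 ewe. Breed and country cannot be told apart, because each country contributed its own breeds.

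Chemokines guide leukocytes into tissue. Many cytokines act through paired receptor chains that pass the signal to Janus kinases and, for interferons, to interferon regulatory factors (IRFs). The IL17 receptor uses the adaptor TRAF3IP2 (Act1). The TNF receptor family and its TRAF adaptors relay survival, inflammatory and B-cell signals. In the cervix these genes are active in the mucosal epithelium as well as in resident and recruited leukocytes, and the organ's leukocyte content is known to vary with ovarian steroids.

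The way the members were chosen limits what can be tested. In the synchronised follicular ewes, 31 members came from the genes higher in Suffolk than in Fur, and 1, IFITM3 (ENSOARG00000008211), came from those higher in Suffolk than in Belclare. In those ewes all 31 members that could be fitted were lower in Fur than in Suffolk, from -2.10 (CXCL14) to -0.40 (IFITM3, ENSOARG00000008211) on the log2 scale. The next smallest was TNFRSF25 at -0.50, and the median was -0.65. In NWS 30 of the 31 were lower than in Suffolk and in Belclare 27. Those values describe the choice and were not tested. The tests below used natural follicular and luteal ewes, and NWS and Belclare ewes, none of which chose the members. The IFITM3 identifier just named is the exception wherever synchronised follicular Belclare ewes enter. The choice was still made on breed, so lower levels in other Fur ewes than in other Suffolk ewes repeat it in part. Shares over all genes, which were not chosen in this way, are given for scale. An excess over them is not a result about immune genes.

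Library totals ranged from 12238996 to 31261671 counted read pairs (median 17835128), and at this depth the standard error on the log2 scale had a median over all genes between 0.136 and 0.218 in the breed comparisons of natural ewes. Levels are CPM, counts scaled to library size with TMM factors; they are not corrected for gene length, and they are compared only within a gene. The epithelial genes CDH1, MUC5B and PAX8 and the muscle gene DES were above 0 in each of the 114 ewes. In 4 groups 1 library each stood apart, in that its median correlation with its own group was under 0.9. These were Suffolk natural ewe 4, NWS natural ewe 5, Belclare synchronised follicular ewe 2 and NWS synchronised follicular ewe 9. NWS natural ewe 5 and Belclare synchronised follicular ewe 2 had the highest summed smooth muscle markers of their groups. Suffolk natural ewe 4 had 4.68 CPM of neutrophil markers against 45.7 or more in its group, and more immunoglobulin transcripts. The mitochondrial gene COX-1 was at 25.7 to 49.0 CPM in all Fur groups, and NWS natural ewes 4 and 10 resembled Fur in it (38.2 and 33.2 CPM against 816 to 2577 in the other 8), so the comparisons of natural NWS ewes were repeated without them. Against Belclare the same 6 members were then lower, against Fur and against synchronised NWS ewes 0 were called, as with them, and the calls against Suffolk changed as given beside those results. In bulk tissue, fewer cells of a type and less RNA per cell cannot be told apart.

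Against Suffolk, the members were lower or did not pass the test in both Norwegian breeds, and none was higher. At the natural follicular phase 9 of 31 members (29.0%) were lower in Fur, where 12.7% of all genes were called lower and 7.54% higher (edgeR quasi-likelihood F test, adjusted p under 0.05). At the luteal phase 17 of 31 (54.8%) were lower in Fur, where 15.6% of all genes were lower and 14.5% higher. In NWS the counts were 2 (6.45%) at the natural follicular phase, where 0.5% of all genes were lower and 0.54% higher, and 3 (9.68%) at the luteal phase, where 3.29% were lower and 5.64% higher. The members' median log2 fold change was -0.33 and -0.63 in Fur and -0.27 and -0.34 in NWS at the natural follicular and luteal phases, while the median of all genes lay between -0.03 and 0.01. These comparisons share their Suffolk ewes within a state.

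**Figure D1:**
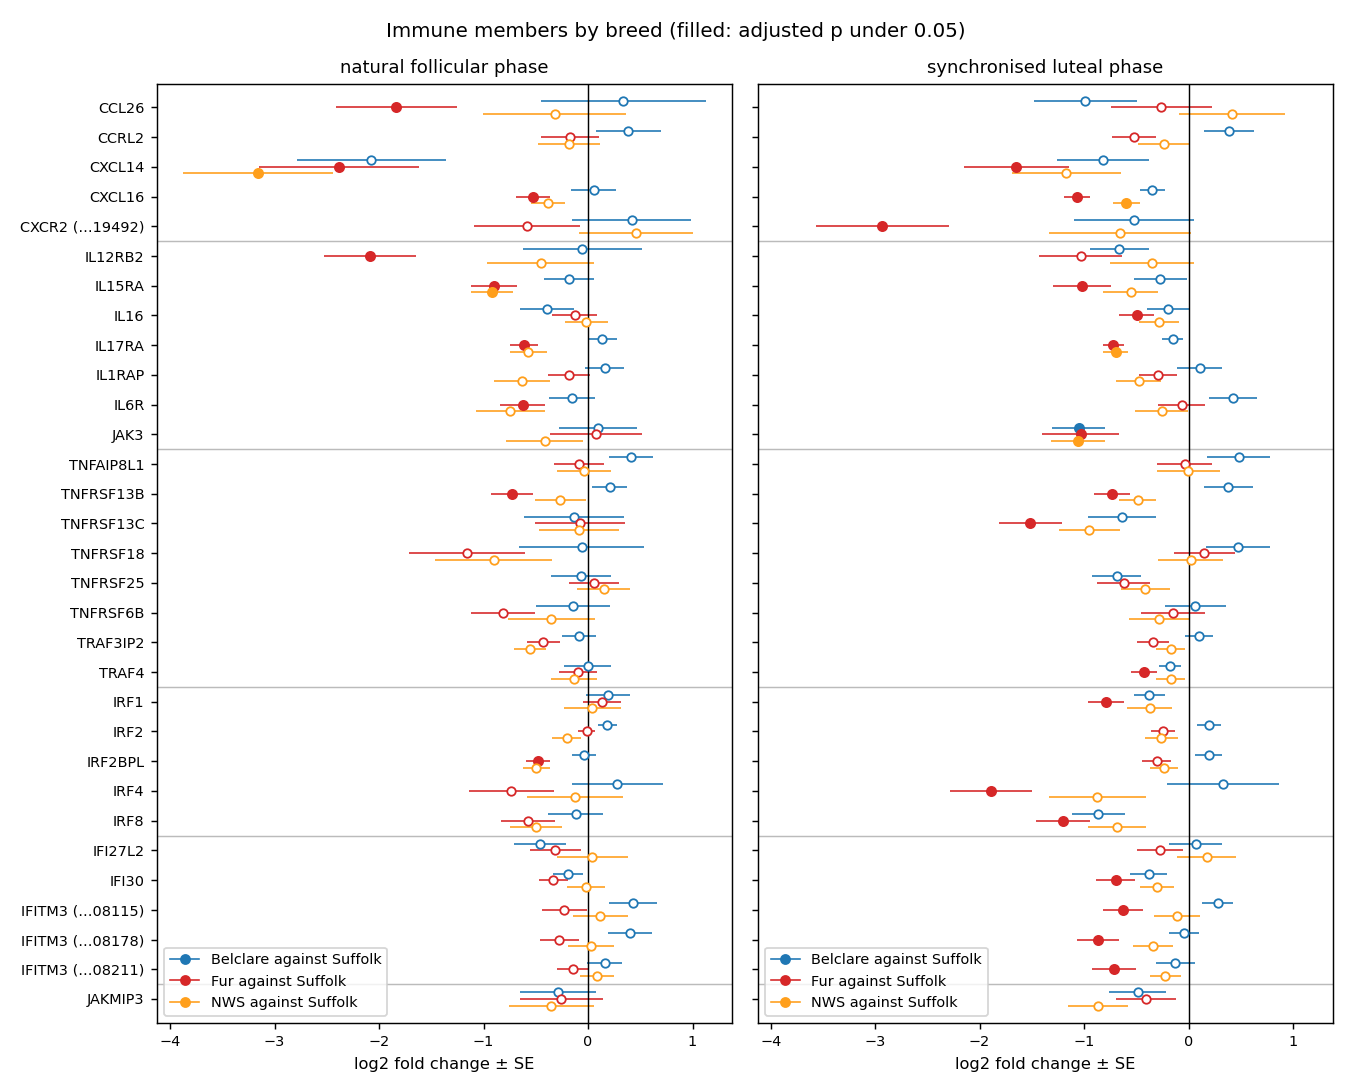
Log2 fold change of each tested member against Suffolk (horizontal axis) at the natural follicular phase (left) and the luteal phase (right), with bars of 1 standard error and filled points where the adjusted p is under 0.05; members are grouped by role. In Fur, 9 members at the natural follicular phase and 17 at the luteal phase have filled points, all left of 0.

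The Fur count at the natural follicular phase depended on some ewes. It was 5 without Fur ewe 4, 6 or 7 or Suffolk ewe 3 or 9, and 4 without Suffolk ewe 2, with IL12RB2, IL15RA, IL17RA and IRF2BPL called lower in all 18 repeats with 1 ewe left out. TNFRSF13B was called in 17 of them and IL6R in 4. In luteal ewes it stayed between 15 and 19, with IL16 called in 14 of 19 repeats. The NWS count at the natural follicular phase was 0 without NWS ewes 4 and 10, 0 without the 2 libraries of these groups that stood apart, and between 0 and 5 when 1 ewe was left out. In luteal ewes it was 3 to 6, the 6 without Suffolk ewe 10. Shares of all genes called in these repeats are not given.

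Against Belclare, the other Irish breed, members were also mostly lower. Fur had 15 of 31 members (48.4%) lower at the natural follicular phase, where 20.8% of all genes were lower and 19.8% higher, and 14 (45.2%) at the luteal phase, where 19.6% were lower. NWS had 15 (48.4%) lower at the synchronised follicular phase (18.4% of all genes), 6 (19.4%) at the natural follicular phase (8.76%) and 5 (16.1%) at the luteal phase (11.2%). With a fold above 1.5 asked for as well, natural and luteal Fur ewes had 9 and 8 members lower (7.13% and 7.45% of all genes lower, 8.59% and 8.81% higher). Natural NWS ewes then had 3 lower (4.7% of all genes lower, 8.26% higher) and luteal NWS ewes 2 lower and 1 higher (4.59% and 7.05%). The 1 member that was higher was CCL26, in luteal NWS ewes, where 13.9% of all genes were higher. Of the 31 members, 27 were called in at least 1 of these 9 Norwegian against Irish comparisons. The share of all genes so called was not computed, so that count shows nothing particular to the members. The 4 members called in none of the 9 comparisons were TNFRSF18, TNFRSF25, IFI27L2 and JAKMIP3.

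Of the interleukin receptors, IL17RA was lower in Norwegian than in Irish ewes in 8 of 9 comparisons. IL17RA, the common signalling chain of the receptors for IL17 cytokines, was between 37.7 and 58.2 CPM (median 48.9) in the 10 natural Fur ewes and between 24.8 and 63.6 CPM (median 49.8) in the 10 natural NWS ewes. The 8 natural Suffolk ewes had 45.1 to 103 CPM (median 71.0) and the 10 Belclare ewes 67.3 to 105 CPM (median 77.2). All Norwegian ewes lay below all Belclare ewes, whereas Suffolk overlapped both. In the luteal phase Fur ranged from 43.3 to 58.6 CPM (median 49.5) and NWS from 41.6 to 62.7 CPM (median 49.0). Luteal Belclare ewes had 63.3 to 92.3 CPM (median 74.2) and luteal Suffolk ewes 51.1 to 101 CPM (median 84.0). The Norwegian and Belclare ranges were apart again, and 9 of the 10 luteal Suffolk ewes had 71.9 CPM or more. IL17RA was lower in Fur than in Suffolk by -0.62 ± 0.13 (log2 fold change ± SE; adjusted p = 0.0066) at the natural follicular phase and -0.72 ± 0.10 (adjusted p = 0.00023) at the luteal phase. In NWS the luteal difference was -0.70 ± 0.12 (adjusted p = 0.0020) and the natural one -0.57 ± 0.17 (adjusted p = 0.090). Against Belclare all 5 comparisons were called, between -0.74 and -0.56. At the synchronised follicular phase the 10 NWS ewes had 36.2 to 55.6 CPM (median 45.2) and the 10 Belclare ewes 57.4 to 93.9 CPM (median 72.5), again without overlap (-0.68 ± 0.09, adjusted p = 3.3e-05). Ranges without overlap were seen for 2.03% of all genes in that comparison. Against Belclare they were seen for 4.57% in Fur and 0.824% in NWS at the natural follicular phase, and for 4.87% and 1.73% at the luteal phase.

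IL15RA, which presents IL15 to lymphocytes, was at 8.02 to 19.1 CPM (median 13.0) in natural Fur ewes, 10.2 to 17.0 CPM (median 12.4) in NWS, 9.31 to 30.2 CPM (median 19.3) in Belclare and 10.7 to 38.8 CPM (median 22.3) in Suffolk. The ranges overlapped, but all 20 Norwegian ewes lay below the medians of both Irish groups. It was lower than in Suffolk by -0.90 ± 0.22 in Fur (adjusted p = 0.011) and -0.92 ± 0.20 in NWS (adjusted p = 0.041). Without NWS ewes 4 and 10 the NWS difference was -0.89 (adjusted p = 0.11), and the call held in 6 of the 18 repeats with 1 ewe left out. At the luteal phase the difference from Suffolk was -1.02 ± 0.28 in Fur (adjusted p = 0.011) and -0.56 ± 0.27 in NWS (adjusted p = 0.20). Luteal levels were 6.16 to 18.2 CPM (median 9.83) in Fur, 9.71 to 20.5 CPM (median 12.9) in NWS, 9.85 to 23.5 CPM (median 16.5) in Belclare and 10.6 to 52.6 CPM (median 17.4) in Suffolk.

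**Figure D2:**
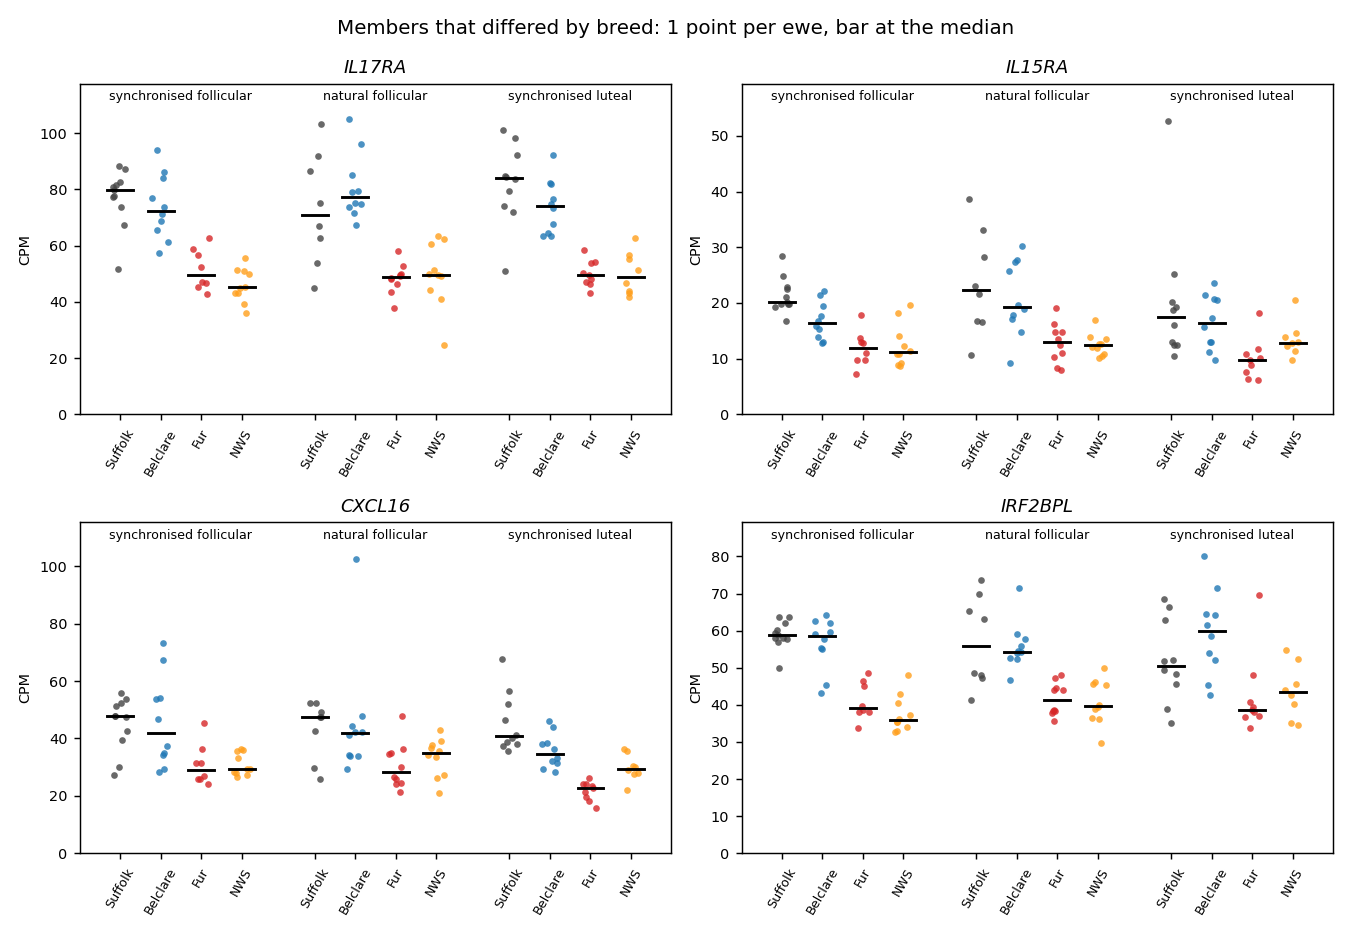
CPM (vertical axis) of IL17RA, IL15RA, CXCL16 and IRF2BPL in each ewe by state and breed, with a bar at the group median. For IL17RA the Fur and NWS medians lie between 45.2 and 49.8 CPM in every state and the Belclare and Suffolk medians between 71.0 and 84.0 CPM.

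The other interleukin genes differed in fewer comparisons. IL12RB2, the signalling chain of the IL12 receptor on T and natural killer cells, was at 0.495 to 1.86 CPM (median 0.765) in natural Fur ewes and 0.810 to 7.14 CPM (median 4.38) in Suffolk. It was lower in Fur by -2.09 ± 0.44 (adjusted p = 0.0060), and 6 of the 10 Fur ewes were below every Suffolk ewe. IL6R, the ligand-binding chain of the IL6 receptor, was called lower in natural Fur ewes at -0.63 ± 0.22 (adjusted p = 0.047). Without Suffolk ewe 4, the highest of its group at 61.2 CPM, the difference was -0.39 (adjusted p = 0.10). Against Belclare IL6R was lower in 4 of 5 comparisons, down to -0.70 ± 0.19 in luteal NWS ewes. IL1RAP, the accessory chain of the IL1 receptor, did not pass against Suffolk but was lower than in Belclare in 3 of 5, with -0.92 ± 0.21 in synchronised follicular NWS ewes (adjusted p = 0.0023). IL16, a chemoattractant for CD4 cells, was called in 1 comparison, lower in luteal Fur ewes than in Suffolk (-0.50 ± 0.17, adjusted p = 0.032). JAK3, the kinase of receptors that use the common gamma chain, was lower than in luteal Suffolk ewes in all 3 other breeds, by -1.03 ± 0.37 in Fur, -1.06 ± 0.26 in NWS and -1.05 ± 0.26 in Belclare. The Fur call (adjusted p = 0.040) held in 10 of the 19 repeats with 1 ewe left out. The 3 comparisons share those 10 Suffolk ewes, at 19.5 to 51.0 CPM (median 26.7) against medians of 14.1, 12.3 and 13.6 CPM. Against Belclare at the synchronised follicular phase JAK3 was lower in NWS by -1.61 ± 0.31 (adjusted p = 0.00065).

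Among the chemokines, CXCL16, the membrane-bound ligand of the T-cell receptor CXCR6, separated luteal Fur ewes from both Irish breeds. Luteal Fur ewes had 15.7 to 26.3 CPM (median 22.7) and NWS ewes 22.0 to 36.3 CPM (median 29.5). Luteal Belclare ewes had 28.4 to 46.0 CPM (median 34.6) and Suffolk ewes 35.6 to 67.5 CPM (median 40.7). Every Fur ewe was below every Irish ewe, a pattern shown by 1.48% of all genes against Suffolk and 4.87% against Belclare. CXCL16 was lower than in Suffolk by -1.07 ± 0.12 in Fur (adjusted p = 5.1e-05) and -0.59 ± 0.13 in NWS (adjusted p = 0.010). In natural ewes the Fur range was 21.4 to 47.8 CPM (median 28.4) and the Suffolk range 25.9 to 52.5 CPM (median 47.5), a difference of -0.53 ± 0.16 (adjusted p = 0.032) that was called in 9 of the 18 repeats with 1 ewe left out.

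CXCL14, a chemokine made by epithelia and stroma, was scarce and varied widely between ewes. Natural Suffolk ewes ranged from 0.305 to 26.2 CPM (median 3.94), natural Fur ewes from 0.134 to 4.83 CPM (median 0.944) and natural NWS ewes from 0.169 to 2.38 CPM (median 0.809). It was lower than in Suffolk by -2.38 ± 0.77 in Fur (adjusted p = 0.036) and by -3.16 ± 0.72 in NWS (adjusted p = 0.043). Each call was lost in at least 9 of 18 repeats with 1 ewe left out, and the NWS value was -3.00 (adjusted p = 0.13) without NWS ewes 4 and 10. In luteal ewes Fur was lower by -1.65 ± 0.51 (adjusted p = 0.020). Luteal Fur ewes had at most 0.683 CPM and luteal Suffolk ewes 0.384 to 2.81 CPM.

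CCL26, an eotaxin that attracts eosinophils, was lower in natural Fur ewes than in Suffolk (-1.84 ± 0.58, adjusted p = 0.034) and than in Belclare (-2.16 ± 0.61). The call against Suffolk held in 7 of the 18 repeats with 1 ewe left out, where the difference ran from -2.09 to -1.28. In luteal NWS ewes it was higher than in Belclare (+1.40 ± 0.37, adjusted p = 0.013), with 0.949 to 6.52 CPM (median 3.82) against 0.476 to 2.78 CPM (median 1.58). CCRL2, an atypical receptor that binds chemerin, did not pass against Suffolk and was lower than in Belclare in 3 of 5 comparisons, with -0.91 ± 0.26 in luteal Fur ewes. CXCR2, the neutrophil receptor for ELR chemokines, has 2 identifiers among the members. Reads from near-identical copies may not map uniquely, so values for CXCR2 and for the 3 IFITM3 identifiers are uncertain. CXCR2 (ENSOARG00000019492) had 0 to 0.124 CPM in luteal Fur ewes, at most 2 read pairs per ewe and 8 over the 9 ewes, against 74 over the 10 luteal Suffolk ewes. The ratio of these summed reads per library total was 0.119 (95% exact interval 0.0495 to 0.247, counting error only). The call in luteal Fur against Suffolk had adjusted p = 0.0027. The untested CXCR2 (ENSOARG00000019477) had group medians from 0.0623 CPM in luteal Fur ewes to 0.945 CPM in synchronised follicular Suffolk ewes.

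In the TNF receptor family the B-cell receptors for BAFF and APRIL were among the lower members. TNFRSF13B (TACI) was at 2.90 to 7.73 CPM (median 5.03) in natural Fur ewes and 5.52 to 12.2 CPM (median 7.72) in Suffolk. It was lower by -0.73 in both states against Suffolk (SE 0.20 and 0.17; adjusted p = 0.018 and 0.0048), and in the luteal phase by -1.11 ± 0.26 in Fur and -0.88 ± 0.27 in NWS against Belclare. TNFRSF13C, the BAFF receptor, was lower in luteal Fur ewes than in Suffolk by -1.51 ± 0.30 (adjusted p = 0.0015), at 0.497 to 2.36 CPM (median 1.87) against 1.92 to 9.24 CPM (median 4.35). TNFRSF6B, a soluble decoy receptor, was called in 1 comparison, lower in natural Fur ewes than in Belclare (-0.66 ± 0.26). TRAF3IP2 (Act1), the adaptor of the IL17 receptor, was lower than in Belclare in 3 of 5 comparisons, between -0.47 and -0.33, and was -0.43 ± 0.16 in natural Fur ewes against Suffolk (adjusted p = 0.060). TRAF4 was lower in luteal Fur ewes than in Suffolk (-0.43 ± 0.13) and in 2 comparisons with Belclare. TNFAIP8L1, a relative of TNFAIP8, was lower in synchronised follicular NWS ewes than in Belclare (-0.67 ± 0.20). TNFRSF18 (GITR), a co-stimulatory receptor of T cells, did not pass in any, and natural Suffolk ewes alone ranged from 2.46 to 150 CPM.

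IRF2BPL, a nuclear protein named for its likeness to the partners of IRF2, was at 35.6 to 48.1 CPM (median 41.2) in natural Fur ewes, 29.8 to 50.0 CPM (median 39.7) in NWS, 46.7 to 71.4 CPM (median 54.4) in Belclare and 41.3 to 73.7 CPM (median 55.9) in Suffolk. All but 1 of the 10 NWS ewes and 8 of the 10 Fur ewes were below every Belclare ewe. IRF2BPL was lower in Fur than in Suffolk by -0.48 ± 0.11 (adjusted p = 0.0089), and NWS was at -0.50 ± 0.13 (adjusted p = 0.064). At the luteal phase the differences from Suffolk were -0.31 ± 0.14 and -0.24 ± 0.13 and did not pass. Against Belclare it was lower in all 5 comparisons. At the synchronised follicular phase NWS had 32.7 to 48.2 CPM (median 35.8) and Belclare 43.1 to 64.3 CPM (median 58.5), a difference of -0.59 ± 0.09 (adjusted p = 6.6e-05).

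The 4 IRFs differed from one another. IRF2, which competes with IRF1 for the same promoter element, was lower than in Belclare in all 5 comparisons, from -0.64 ± 0.11 in synchronised follicular NWS ewes (adjusted p = 0.00027) to -0.19 ± 0.07 in natural Fur ewes, and passed in none against Suffolk. The synchronised follicular NWS ewes had 36.4 to 62.3 CPM (median 44.2) and the Belclare ewes 57.2 to 94.6 CPM (median 72.5), with 8 of 10 NWS ewes below every Belclare ewe. IRF1, the interferon-gamma response factor, was lower in luteal Fur than Suffolk ewes by -0.79 ± 0.17 (adjusted p = 0.0027), at 27.0 to 69.5 CPM against 48.8 to 102 CPM. It was also lower in synchronised follicular NWS ewes than in Belclare (-0.77 ± 0.19). IRF4, a factor of plasma cells and activated lymphocytes, was lower in luteal Fur than Suffolk ewes by -1.89 ± 0.39 (adjusted p = 0.0019), at 0.386 to 8.02 CPM (median 3.30) against 5.44 to 35.1 CPM (median 11.8). IRF8, a factor of dendritic and other myeloid cells, was lower there by -1.20 ± 0.26 (adjusted p = 0.0024), at 1.88 to 9.28 CPM (median 7.52) against 8.14 to 26.5 CPM (median 17.3).

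The interferon-induced members include 3 identifiers named IFITM3, a membrane protein that restricts virus entry. In luteal Fur ewes all 3 were lower than in Suffolk: -0.86 ± 0.20 for ENSOARG00000008178, -0.71 ± 0.21 for ENSOARG00000008211 and -0.63 ± 0.19 for ENSOARG00000008115. The first and the last of these were also lower in 3 of 5 comparisons with Belclare each. ENSOARG00000008115 and ENSOARG00000008178 moved together across ewes, with r = 0.945 over 114 ewes after group means were removed. IFI30 (GILT), a lysosomal thiol reductase of antigen processing, was lower in luteal Fur ewes than in Suffolk (-0.70 ± 0.19, adjusted p = 0.0097). IFI27L2 did not pass in any breed comparison, and neither did JAKMIP3, whose group medians were between 0.761 and 2.38 CPM.

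Within a country few members passed, though a p that misses the threshold does not show that they were alike. In Belclare against Suffolk no member passed at the natural follicular phase, where 0% of all genes did, and 1 had an unadjusted p under 0.05 (CXCL14, -2.08 ± 0.71, adjusted p = 0.44). The DESeq2 Wald test called none there. At the luteal phase 1 member was lower, JAK3 (adjusted p = 0.036), where 2.04% of all genes were lower and 1.11% higher. In NWS against Fur no member passed at either phase in edgeR, where 0.0203% and 0.0338% of all genes were called lower. At each phase 4 members had an unadjusted p under 0.05 and the DESeq2 Wald test called 1. Shares of all genes at that unadjusted p or by DESeq2 are not given, so these counts show nothing particular to the members. The smallest unadjusted p values belonged to IL12RB2 at the natural follicular phase (+1.61 ± 0.40, adjusted p = 0.21) and CXCL16 at the luteal phase (+0.46 ± 0.11, adjusted p = 0.22).

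Marker lists of other cell types moved with the breed differences. The summed epithelial list of 17 genes had group medians of 3580 to 5122 CPM in the Irish and 2566 to 3047 CPM in the Norwegian groups. Of its genes 11 were called lower in Fur than in Suffolk at the natural follicular phase and 6 at the luteal phase, and 3 and 1 in NWS. The smooth muscle pair ACTG2 and DES had summed medians of 202 to 566 CPM in the Irish and 2369 to 6018 CPM in the Norwegian groups. At the luteal phase, of 15 lymphocyte markers 8 were lower in Fur than in Suffolk, of 11 myeloid markers 8, and of 4 immunoglobulin genes 4. In NWS these counts were 1, 2 and 4. At the natural follicular phase 0, 1 and 1 of these 3 lists were lower in Fur. The interferon-stimulated list went both ways: of its 19 genes 6 were higher, among them OAS1 (+2.33 ± 0.35), and 1 lower in natural Fur ewes than in Suffolk, whereas at the luteal phase 8 were lower and 0 higher. In NWS 0 were called at the natural follicular phase and 1 was lower at the luteal phase. Of the 4 neutrophil markers, CD177 was higher (+2.42 ± 0.75) and AQP9 lower (-1.73 ± 0.57) in natural Fur ewes, and 2 were lower in luteal Fur ewes. Apart from CD177, AQP9, ACTG2 and DES, the genes of these lists were drawn from those higher in Suffolk than in Fur, so their direction is not independent evidence, and no listed gene was at 0 in every ewe. The part of cell makeup in the members' differences was not tested.

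Other genes that carry cytokine and TNF signals showed the same direction. This list held 15 genes, all from the genes higher in Suffolk than in Fur, so its direction is not independent evidence. In Fur against Suffolk 8 of 15 were lower at the natural follicular phase and 12 at the luteal phase, and in NWS 0 and 4, with none higher. The list's median log2 fold change was -0.54 and -0.68 in Fur and -0.30 and -0.55 in NWS.

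Members differed by phase of the cycle in both directions. In each breed the share called lower was near that of all genes, and the share called higher lay on either side of it. Luteal Belclare ewes had 8 members lower and 4 higher than follicular ewes of the synchronised cycle (25.8% and 12.9%, where 22.8% and 20.3% of all genes were called lower and higher). Luteal NWS ewes had 6 lower and 8 higher (19.4% and 25.8%, against 20.4% and 21.3% of all genes). For Suffolk and Fur the follicular ewes that had not chosen the members were natural ones, so phase and synchronisation differ together. There luteal Suffolk ewes had 3 lower and 5 higher (9.68% and 16.1%, against 11.7% and 9.07%), and luteal Fur ewes 7 lower and 1 higher (22.6% and 3.23%, against 21.1% and 19.2%). Without Suffolk natural ewe 4 the Suffolk counts were 5 and 8, and the shares of all genes without that ewe are not given. Over the 4 comparisons 20 members were called at least once, 0 in both directions, and 5 were lower in at least 3: CXCL14, IFI30, IL12RB2, IRF8 and CXCR2 (ENSOARG00000019492). The matching shares over all genes were not computed, so these counts show nothing particular to the members. The direction of no called member turned when libraries were scaled by their totals instead of TMM, but that scaling moved the median of all genes up by 0.16, 0.17, 0.11 and 0.14 in Belclare, NWS, Suffolk and Fur. The counts lower and higher then became 7 and 10, 4 and 11, 3 and 8, and 6 and 3. Shares of all genes called lower and higher with that scaling are not given.

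**Figure D3:**
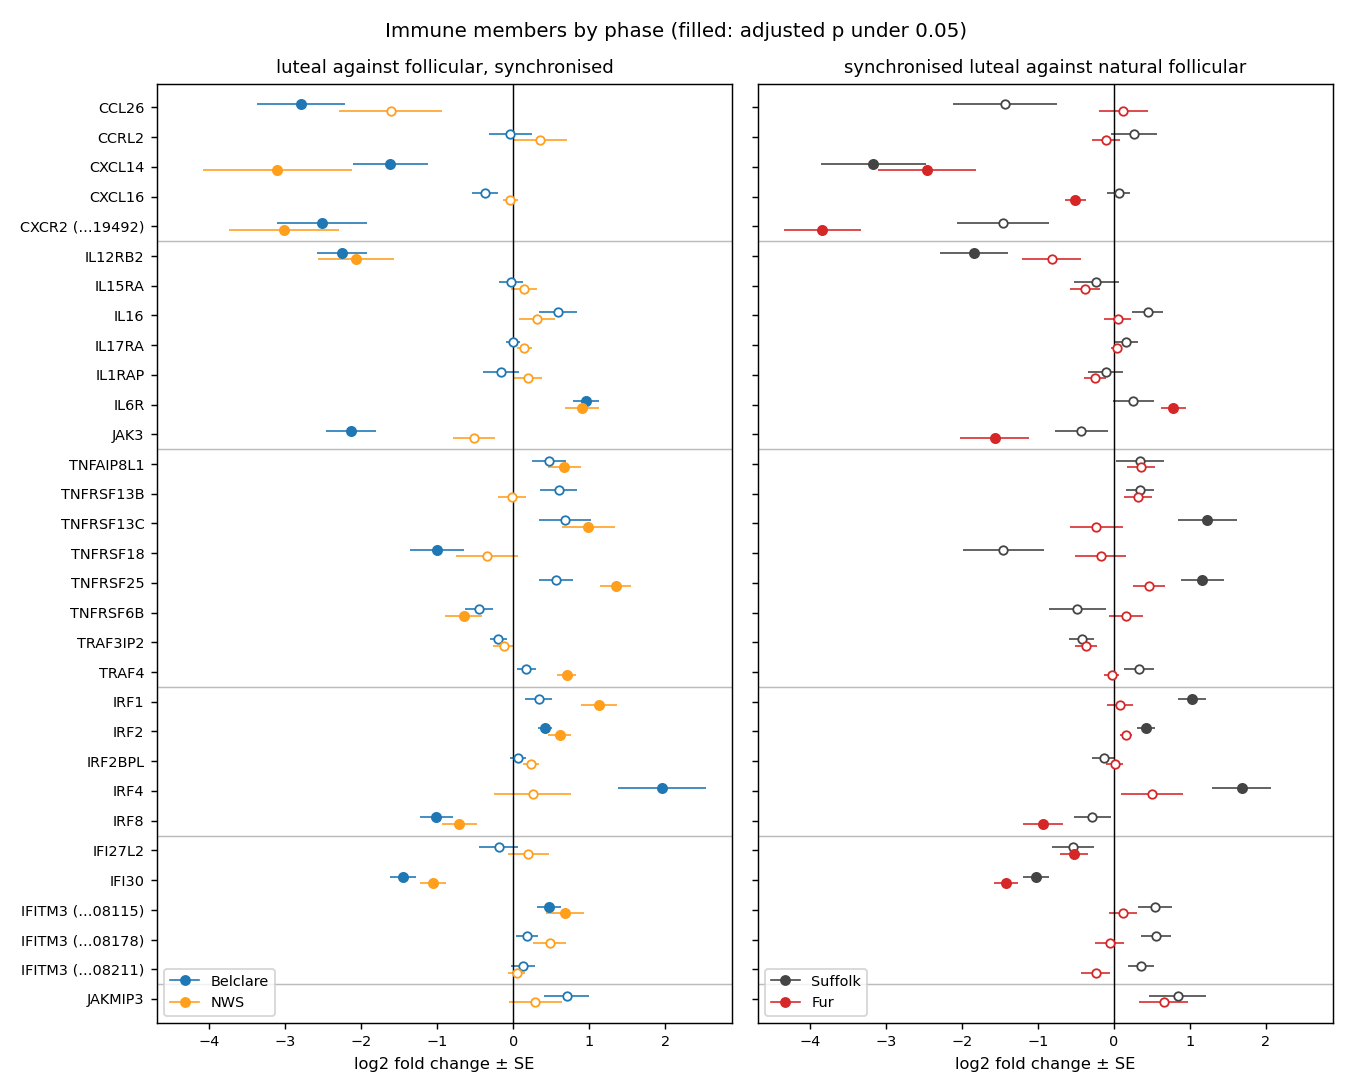
Log2 fold change of each tested member, luteal against follicular (horizontal axis), for Belclare and NWS within the synchronised cycle (left) and for Suffolk and Fur against natural follicular ewes (right), with bars of 1 standard error and filled points where the adjusted p is under 0.05. IFI30 and CXCL14 have filled points left of 0 in all 4 breeds.

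IFI30 was lower in luteal ewes of all 4 breeds. In Belclare it was at 52.9 to 110 CPM (median 74.1) in synchronised follicular and 20.3 to 53.8 CPM (median 25.4) in luteal ewes, with 9 of 10 luteal ewes below every follicular ewe (-1.45 ± 0.17, adjusted p = 3.4e-06). In NWS the ranges of 36.0 to 83.5 CPM (median 64.8) and 18.2 to 35.7 CPM (median 32.1) did not overlap (-1.06 ± 0.17, adjusted p = 0.00021), a pattern shown by 2.8% of all genes. Natural Fur ewes, at 50.4 to 78.6 CPM (median 58.1), also lay above all luteal Fur ewes, at 10.5 to 33.6 CPM (median 25.1), where 5.19% of all genes were apart. The differences were -1.42 ± 0.16 in Fur and -1.03 ± 0.17 in Suffolk. State took 70.8% of the variance of IFI30 over the 75 natural and luteal ewes and breed 4.71%.

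IL12RB2 fell from 0.934 to 6.50 CPM (median 3.19) in follicular to 0.406 to 1.04 CPM (median 0.590) in luteal Belclare ewes (-2.26 ± 0.33, adjusted p = 2.7e-05). In NWS it fell from 0.398 to 7.31 CPM (median 3.53) to 0.253 to 2.09 CPM (median 0.694), a difference of -2.07 ± 0.50. The Suffolk difference was -1.85 ± 0.45 and passed, and the Fur difference did not. CXCL14 was lower in luteal ewes of all 4 breeds, by -1.62 ± 0.49 in Belclare, -3.10 ± 0.98 in NWS, -3.16 ± 0.69 in Suffolk and -2.46 ± 0.64 in Fur. The Belclare ewes went from 0.374 to 6.13 CPM (median 1.49) to 0.0624 to 1.74 CPM (median 0.468), and the NWS ewes from 0.443 to 32.5 CPM (median 0.940) to 0 to 1.01 CPM (median 0.500). Without NWS synchronised follicular ewe 9, which held the 32.5 CPM, the NWS difference was -0.98 (adjusted p = 0.11).

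IRF8 was lower in luteal Belclare, NWS and Fur ewes, by -1.01 ± 0.22, -0.71 ± 0.23 and -0.94 ± 0.26. Belclare ewes had 11.9 to 27.4 CPM (median 18.0) at the follicular and 5.16 to 20.3 CPM (median 7.77) at the luteal phase, and NWS ewes 12.6 to 22.2 CPM (median 16.4) and 4.80 to 21.0 CPM (median 8.46). In both breeds all but 1 luteal ewe lay below the follicular median. CXCR2 (ENSOARG00000019492) was lower in the same 3 breeds. Its level was 0.0543 to 4.53 CPM (median 1.30) in follicular and 0 to 1.22 CPM (median 0.186) in luteal Belclare ewes (-2.52 ± 0.59), and 0.284 to 5.79 CPM (median 1.12) and 0 to 0.940 CPM (median 0.114) in NWS ewes (-3.02 ± 0.73). In Fur the 9 luteal ewes together had 8 read pairs and the 10 natural ewes 148, a ratio per library total of 0.0672 (95% exact interval 0.0285 to 0.136). The neutrophil list of 4 genes had summed medians of 185 CPM in follicular and 87.8 CPM in luteal Belclare ewes and 73.5 and 47.8 CPM in NWS ewes. Of its genes, PADI4 was lower in luteal Belclare ewes (-4.93 ± 0.41) and AQP9 higher (+6.10 ± 0.40). The part of neutrophil number in the CXCR2 difference was not tested.

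JAK3 was lower in luteal Belclare ewes by -2.14 ± 0.33 (adjusted p = 5.3e-05), at 6.55 to 34.7 CPM (median 13.6) against 17.4 to 117 CPM (median 60.2), and in Fur by -1.57 ± 0.46. Members lower in 1 breed were CCL26 (-2.80 ± 0.58) and TNFRSF18 (-1.01 ± 0.35) in Belclare, TNFRSF6B in NWS (-0.65 ± 0.24), and CXCL16 (-0.51 ± 0.13) and IFI27L2 (-0.53 ± 0.18) in Fur. Whether those breeds differed from the others in these members is given by the interaction tests only for the pairs fitted.

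IL6R rose in the luteal phase in 3 breeds. All 10 luteal Belclare ewes, at 35.0 to 81.8 CPM (median 43.4), were above all 10 follicular ewes, at 14.0 to 33.9 CPM (median 24.7), a separation shown by 4.4% of all genes (+0.95 ± 0.17, adjusted p = 0.00017). In NWS it rose from 10.1 to 36.6 CPM (median 13.8) to 18.6 to 46.1 CPM (median 26.6), a difference of +0.90 ± 0.23 (adjusted p = 0.0046). In Fur the difference was +0.78 ± 0.17, while in Suffolk it was not called. IRF2 rose in luteal Belclare (+0.41 ± 0.09), NWS (+0.61 ± 0.15) and Suffolk (+0.42 ± 0.12) ewes. Belclare went from 57.2 to 94.6 CPM (median 72.5) to 78.6 to 126 CPM (median 99.6) and NWS from 36.4 to 62.3 CPM (median 44.2) to 38.9 to 88.7 CPM (median 74.4). IFITM3 (ENSOARG00000008115) rose in Belclare (+0.46 ± 0.16) and NWS (+0.68 ± 0.25), from medians of 114 and 76.1 CPM to 155 and 122 CPM, with overlapping ranges of 68.3 to 178 and 113 to 233 CPM in Belclare and 29.3 to 108 and 57.5 to 189 CPM in NWS.

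**Figure D4:**
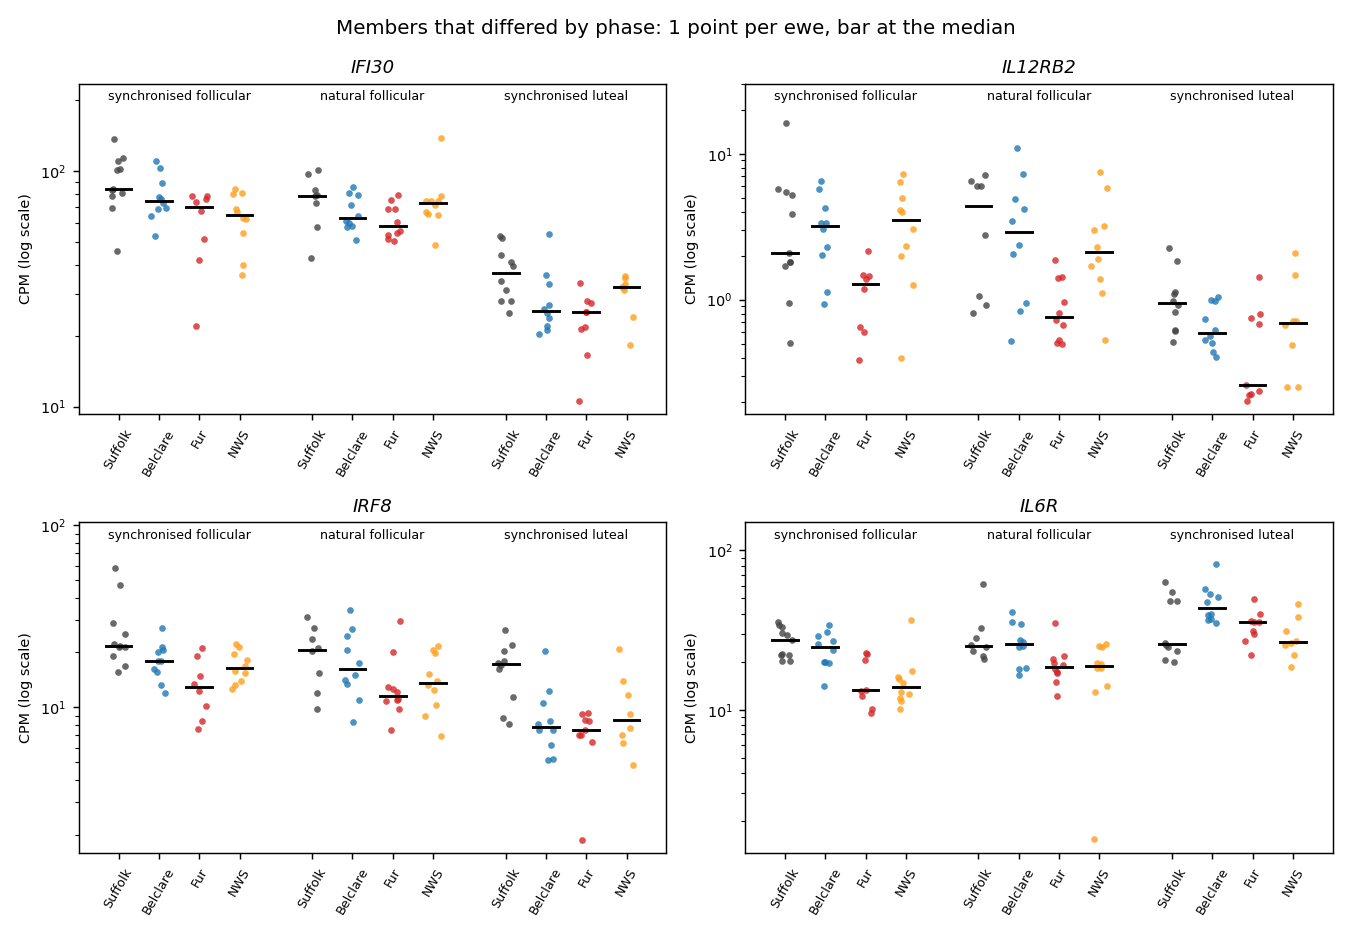
CPM (vertical axis, log scale) of IFI30, IL12RB2, IRF8 and IL6R in each ewe by state and breed, with a bar at the group median. IFI30 medians are 58.1 to 83.7 CPM in the follicular groups and 25.1 to 36.8 CPM in the luteal groups.

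Another 4 members rose in 2 breeds each. IRF1 was higher in luteal NWS (+1.12 ± 0.24) and Suffolk ewes (+1.03 ± 0.19), IRF4 in Belclare (+1.95 ± 0.58) and Suffolk (+1.68 ± 0.39). TNFRSF25 (DR3), a death-domain receptor of T cells, was higher in NWS (+1.35 ± 0.20, all 8 luteal ewes above all 10 follicular ewes, as for 2.8% of all genes) and Suffolk (+1.17 ± 0.28). TNFRSF13C was higher in the same breeds, by +0.98 ± 0.35 and +1.23 ± 0.39. In NWS, TRAF4 (+0.70 ± 0.12) and TNFAIP8L1 (+0.67 ± 0.22) also rose. Interferon-stimulated genes, a list of 19 drawn from the genes higher in Suffolk than in Fur, were called higher in 10 cases in luteal NWS ewes, 9 in Suffolk and 5 in Belclare. In Belclare 1 was lower as well, and in Fur 6 were lower and 0 higher. Of 15 lymphocyte markers 6 were higher in luteal Belclare and in NWS ewes each and 5 in Suffolk, and in Fur 1 was higher and 1 lower. The part of leukocyte number in these member differences was not tested.

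The 11 members called in no luteal comparison included IL17RA, IRF2BPL, IL15RA and CCRL2. Over the 75 natural and luteal ewes, which did not choose the members, state took 0.930%, 0.265%, 2.46% and 2.10% of their variance and breed 61.4%, 41.7%, 34.2% and 18.5%. Over the 31 members the median share was 14.0% for breed and 9.996% for state, near the 12.3% and 9.01% over all genes tested. IL17RA had the largest breed share and IFI30 the largest state share of the 31 in these ewes.

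Few members differed between natural and synchronised follicular ewes. In Belclare no member was called by edgeR or DESeq2, where edgeR called 0% of all genes, and none had an unadjusted p under 0.05. In NWS edgeR called none, where 0.0135% of all genes were called higher. Unadjusted p was under 0.05 for 3 members, and the DESeq2 Wald test called 1. Shares of all genes at that unadjusted p or by DESeq2 are not given, so these counts show nothing particular to the members. The member with the smallest p was TNFRSF25 (+0.73 ± 0.18 in natural ewes, adjusted p = 0.20). For Suffolk and Fur this comparison uses the ewes that chose the members and is a description only: 26 of 31 members were lower in natural than in synchronised Suffolk ewes (median -0.28) and 10 of 31 in Fur (median 0.10).

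No member passed a test of the difference between breeds in their phase effect. For Fur against Suffolk, luteal against natural follicular, edgeR called 1.09% of all genes lower and 0.358% higher. At the looser threshold of an unadjusted p under 0.05 there were 7 members. IRF1 was nearest, with a difference of -0.95 ± 0.26 (adjusted p = 0.052), and the DESeq2 Wald test called 1 member. It had medians of 35.4 and 76.0 CPM in natural and luteal Suffolk ewes and 38.0 and 36.7 CPM in Fur. In the same test 8 of the 19 interferon-stimulated genes were called lower. For NWS against Suffolk edgeR called 0.0135% of all genes higher. There 1 member had an unadjusted p under 0.05 (CXCL14) and DESeq2 called none. For NWS against Belclare within the synchronised cycle edgeR called 0.115% of all genes lower and 0.378% higher. There 5 members had an unadjusted p under 0.05 and DESeq2 called 1. JAK3 was nearest there (+1.61 ± 0.44, adjusted p = 0.085), and 2 members were called without Belclare synchronised follicular ewe 2 and NWS ewe 9. Shares of all genes at an unadjusted p under 0.05, by DESeq2 or without those ewes are not given. The member counts at those settings therefore show nothing particular to the members.

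Ewes of the same group also differed in cell-type transcripts, and members followed them to different degrees. Deviations from the group mean of log2 CPM were related over 114 ewes between 31 members and 8 marker lists, 248 relations in all, of which 126 had an adjusted p under 0.05 (permutation within groups, 100000 draws, two-sided). IRF4 followed the immunoglobulin genes most closely (of these 248, the highest value; Pearson's r = 0.907, Spearman's rho = 0.886, and r = 0.888 without the 2 ewes farthest from the median). TNFRSF18 followed the neutrophil list (r = 0.736, rho = 0.688, 0.679 without 2 ewes) and CCRL2 the myeloid list (r = 0.689, rho = 0.592, 0.656 without 2 ewes). IRF1 and IRF2 followed the interferon-stimulated genes (r = 0.707 and 0.698, rho = 0.707 and 0.706, 0.677 and 0.684 without 2 ewes), and IFITM3 (ENSOARG00000008178) the epithelial list (r = 0.703, rho = 0.658, 0.679 without 2 ewes). Each of these had the smallest p the draws allow, 1e-05 (adjusted p = 5.51e-05), and they were picked after their values were seen. Whether the relation of TNFRSF18 with the neutrophil list reflects neutrophil number was not tested. The neutrophil receptor CXCR2 (ENSOARG00000019492), which was scarce, had r = 0.0469 with that list. Of the list's 4 genes, 3 were lower and 1 higher in luteal than in synchronised follicular Belclare ewes. The members' median r was 0.254 with the myeloid and 0.211 with the epithelial list, against -0.0247 and -0.0109 over all genes. Both lists and all but 1 member were drawn from genes higher in Suffolk than in Fur, so all genes are not a like background. How many relations of all genes would pass was not computed. All values of an ewe come from 1 library, so shared composition enters every relation. CXCL16 was unlike the members named as following a list, with r between -0.10 and 0.29 over the 8 lists.

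**Figure D5:**
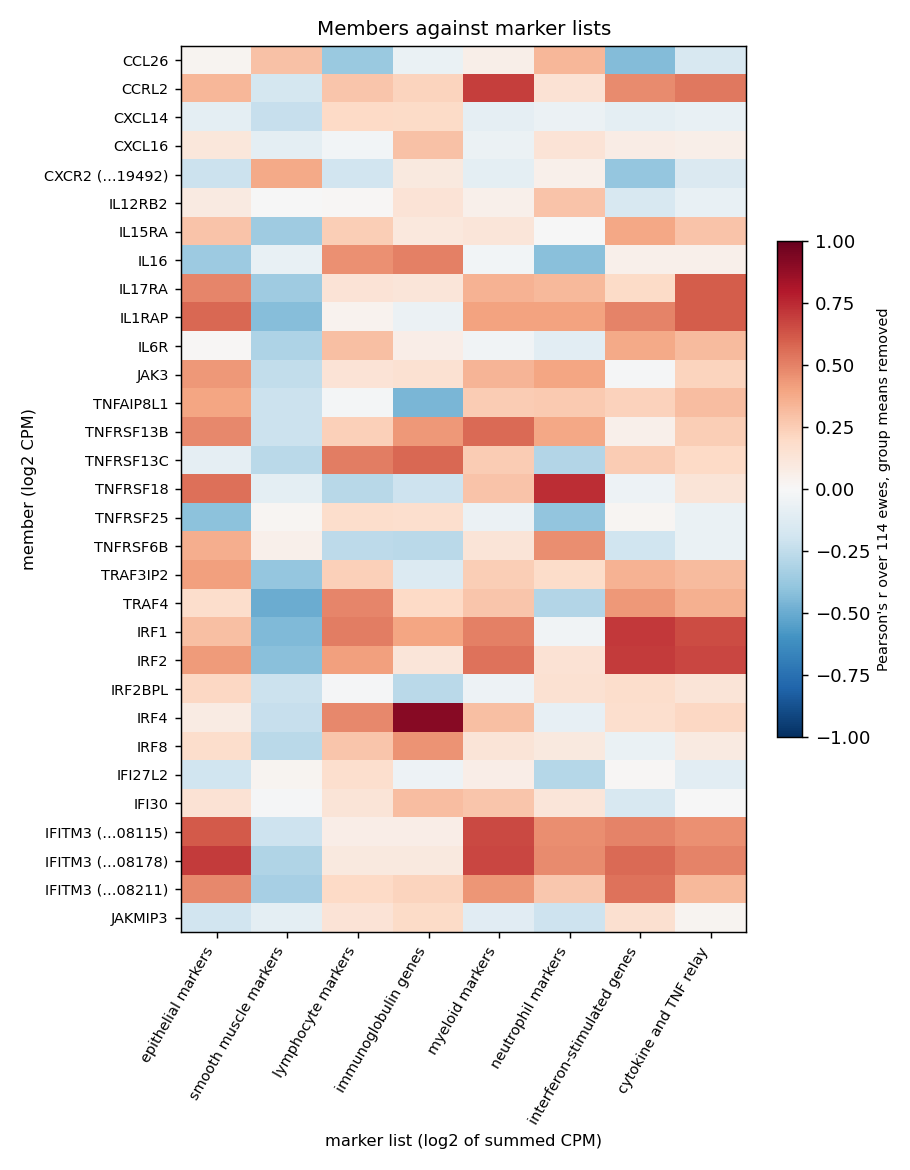
Pearson's r over 114 ewes, with group means removed, between each tested member (rows) and the summed level of each marker list (columns). IRF4 with the immunoglobulin genes has the highest value, 0.907, and TRAF4 with the smooth muscle pair the lowest, -0.497.

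Members of 1 role did not move as a block between ewes. Over all 465 member pairs the median r was 0.0801, from -0.586 to 0.945, against -0.00497 over all pairs of genes tested. Those genes were not chosen as the members were, so they are not a like background. Within roles the median ran from -0.01 for chemokines and their receptors to 0.144 for the interferon-induced genes, the latter holding the 3 IFITM3 identifiers.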

How the data were processed

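Cervical RNA of 115 ewes was sequenced, and the authors deposited raw counts per gene for each sample. Per the study's methods and processing notes, polyadenylated stranded libraries were sequenced as pairs, trimmed, aligned to Oar_v3.1 with STAR 2.6.1b, restricted to uniquely mapped pairs and counted over Ensembl genes with Subread 1.6.3. Groups came from the labels. The labels of 1 sample disagreed, so it entered no comparison and 114 were used in 12 groups. The members and gene lists were chosen with earlier results of these data known.

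The filter on low counts asked for 1 CPM or more in 10 or more of the 39 ewes of the synchronised follicular phase. Each comparison was fitted on its own groups with edgeR 4.0.16 (R 4.3.3; TMM, quasi-likelihood F test), with Benjamini-Hochberg adjustment over 14811 genes in each of 22 tests. A gene is called at adjusted p under 0.05. Standard errors are the log2 fold change divided by the root of F. The relations between members and marker lists used permutation of ewes within groups. Every member is named. Ewe-by-ewe ranges are given for members called in at least 3 of the 4 Fur or NWS against Suffolk comparisons, for those called the same way by phase in Belclare and NWS, and for the 3 of smallest p in NWS against Belclare at the synchronised follicular phase, with further ranges where a result turns on them. Simulated counts had 200 of 14811 genes changed 2-fold. Of these changes 65.5% were recovered for natural Fur against Suffolk and 51.5% for the Fur and Suffolk interaction. In the real natural Fur against Suffolk test 12.7% of all genes were called lower and 7.54% higher, so its recovery may differ. Alternatives were DESeq2 1.42.0 size factors and Wald test, library totals, other count filters, a fold of 1.5, all 12 groups in 1 fit, a replicate block and leaving out ewes. Omitting the 4 libraries that stood apart was chosen after seeing the data. The labels do not say how ewes were allocated. The p-values weigh a difference between groups against the variation between ewes within them, and do not show what caused it. Gene sequences and coordinates were not used here.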

Additional observations from a re-analysis of the deposited data

Results flagged for a closer look

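Among the 12 members described ewe by ewe, 132 group levels in groups of 4 to 10 ewes were examined for an ewe far from the rest of its group (Dixon's criterion), and 16 had one. Chance gives about 1 in 20 groups. In CPM, NWS synchronised follicular ewe 9 was high in CXCL14 (32.5 against 0.443 to 1.99 in the others) and IL6R (36.6 against 10.1 to 17.6), and low in IFITM3 (ENSOARG00000008115; 29.3 against 63.1 to 108). Suffolk natural ewe 4 was high in IL6R (61.2 against 20.7 to 32.6) and low in the same IFITM3 identifier (27.5 against 73.4 to 157), and had 0 for CXCR2 (ENSOARG00000019492; 0.544 to 2.87 in the others). NWS natural ewe 5 was low in IL17RA (24.8 against 41.1 to 63.6), IRF2 (29.1 against 47.6 to 71.7) and IL6R (1.54 against 12.8 to 25.8), and high in IFI30 (137 against 48.2 to 78.1). These 3 ewes are among the 4 libraries whose correlation with their group was under 0.9.

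The remaining cases were spread over other ewes. Belclare natural ewe 1 was high in CXCL16 (102 against 29.2 to 47.9) and in IFITM3 (ENSOARG00000008115; 215 against 92.1 to 138). Luteal Fur ewe 8 was high in IRF2BPL (69.6 against 33.8 to 48.1) and low in IRF8 (1.88 against 6.42 to 9.28), and luteal Fur ewe 6 was high in IFITM3 (ENSOARG00000008115; 178 against 48.8 to 87.8). Luteal Suffolk ewe 10 was low in IL17RA (51.1 against 71.9 to 101). With and without that ewe IL17RA was called lower in luteal Fur and NWS ewes than in Suffolk.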

How the results depend on the processing

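Of 195 combinations of a member count and an alternative, 166 were within 1.5 times the count reported, 29 were not, and no called member turned direction. Except for the fold of 1.5, shares of all genes called under these alternatives are not given. The counts below therefore show how far those reported move, and nothing particular to the members. The cause of these moves was not tested, except that leaving out ewes or asking for a fold leaves fewer ewes or genes. Whether replicate numbers pair ewes could not be decided. In no comparison did every same-numbered pair have deviations correlated above 0.1, but 1 low pair is enough for that. Differently numbered pairs were not compared. The median correlation of same-numbered pairs ran from -0.197 in luteal NWS against Suffolk to 0.162 in luteal Fur against Suffolk. The replicate block gave 0 members for NWS against Suffolk (natural) and Belclare against Suffolk (luteal), 3 for NWS against Belclare (luteal), 9 (4 lower, 5 higher) for NWS by phase and 4 (1 lower, 3 higher) for Suffolk by phase. Asking for 10 counts in every ewe gave 5 in natural Fur and 1 in natural NWS against Suffolk. The DESeq2 Wald test gave 5 and 6 in natural and luteal NWS and 3 in luteal Belclare against Suffolk, and 1 each in both NWS against Fur comparisons, NWS natural against synchronised, the Fur and Suffolk interaction and the NWS and Belclare interaction. Library totals gave 9 in natural Fur against Belclare and 2 in luteal Belclare against Suffolk. In all genes, library totals moved the share of calls that were higher from 51.9% to 27.8% in natural NWS against Suffolk, from 48.1% to 58.4% in luteal Fur against Suffolk, from 55.3% to 71.2% in luteal NWS against Belclare, and from 47.1% to 67.8% and 51.2% to 73.0% by phase in Belclare and NWS. A fold of 1.5 gave 9 and 8 in natural and luteal Fur and 3 and 3 in natural and luteal NWS against Belclare. All 12 groups in 1 fit gave 7 in natural NWS and 3 in luteal Belclare against Suffolk, 1 in natural NWS against Fur and 14 (6 lower, 8 higher) for Suffolk by phase. Omitting NWS natural ewes 4 and 10 gave 0 in NWS against Suffolk, and omitting the libraries that stood apart (chosen after seeing the data) gave 0 there, 13 (5 lower, 8 higher) for Suffolk by phase and 2 in the NWS and Belclare interaction. Leaving out 1 ewe gave 4 to 13 (natural) and 15 to 19 (luteal) in Fur and 0 to 5 and 3 to 6 in NWS against Suffolk. Depth limits CXCR2, CXCL14, JAKMIP3 and IL12RB2, whose levels were near or below 1 CPM in some groups.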

Other observations

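Genes of the same pathways that are not members also differed by phase or by breed. LIF, a cytokine of the IL6 family, was lower in luteal than in synchronised follicular Belclare ewes by -2.63 ± 0.26 (log2 fold change ± SE, adjusted p = 6.2e-07) and in luteal than in natural follicular Fur ewes by -1.96 ± 0.30 (adjusted p = 6.0e-05). SOCS6, of the suppressor of cytokine signalling family, was lower in Fur than in Belclare ewes by -1.02 ± 0.16 in natural and -1.26 ± 0.23 in luteal ewes. MLKL, the effector of necroptosis, was higher in natural Fur than Belclare ewes (+0.96 ± 0.18, adjusted p = 0.00033). ISG15, a ubiquitin-like interferon-stimulated protein, was higher in luteal than in follicular Belclare ewes (+2.10 ± 0.52, adjusted p = 0.0030).

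A further Suffolk sample, whose labels disagree on its state, is in no group. In CPM of its library total it had 63.9 of IL17RA, 34.8 of CXCL16, 37.6 of IRF2BPL, 13.6 of IL15RA, 34.0 of IFI30, 1.17 of IL12RB2, 23.6 of IL6R, 45.2 of JAK3 and 0.845 of CXCL14.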
